A study of Mus musculus with 36 samples.

Results

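The collagen genes described here are the 34 genes of the expression table whose symbols have the form Col, a number, a and a number. They are 34 of 14761 genes measured by bulk RNA sequencing in 36 libraries of mouse embryonic fibroblasts (MEFs), a culture model that can be driven towards fat cells. They were read in 3 classes, with 11 genes for fibrillar collagens, 6 for basement membrane collagens and 17 for other collagens. All 34 passed the filter on low values (at least 10 normalised counts in at least 3 libraries), as did 14293 genes in all. A further 10 genes of the class list were not analysed here.

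The tested lines were Mfn1-/- MEFs at days -2, 0, +3 and +8 and Mfn2-/- MEFs at days -2 and +8, which lack mitofusin 1 or mitofusin 2, the proteins that fuse outer mitochondrial membranes. Mfn1-/- libraries were set against wild-type (WT) libraries A to C of the same days, and Mfn2-/- libraries against WT libraries D to F of days -2 and +8, with 3 libraries in each of the 12 groups. Each genotype was 1 line obtained from a cell bank, so a difference between genotypes and a difference between lines cannot be told apart, and replicates were separate experiments on the same line. Every group was grown to confluence at day -2, and from day 0 all lines received D-pantothenic acid, biotin, rosiglitazone, 3-isobutyl-1-methylxanthine (IBMX), dexamethasone and insulin, continued without IBMX and dexamethasone to day +8. No group was left untreated over these days, so the effect of the cocktail and that of time in culture cannot be told apart.

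Collagens are the main structural proteins of the extracellular matrix, and each molecule is a helix of alpha chains that are encoded by separate genes. Fibrillar collagens such as types I, III and V pack into the fibres that give connective tissue its strength, and fibroblasts are their main source. Type IV collagen forms the sheet of basement membranes, types XV and XVIII sit in or near that sheet, and type VI collagen forms beaded filaments close to cells. Mature fat cells are each wrapped in a basement membrane, and adipose tissue is rich in type VI collagen.

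Libraries held 8800674 to 37011894 reads assigned to genes (median 12641490). The labels were checked on the targeted genes. Mfn2 averaged 226 ± 12.7 normalised counts in Mfn2-/- libraries and 942 ± 35.2 in WT libraries at day -2, and 245 ± 51.1 against 964 ± 46.8 at day +8 (SD, n = 3 each). Mfn1 averaged 172 ± 14.2 in Mfn1-/- libraries and 1342 ± 99.5 in WT libraries at day -2, and it was also lower at days 0 and +3. At day +8 Mfn1 averaged 851 ± 266 in libraries carrying the Mfn1-/- label, against 860 ± 52.0 in WT libraries (adjusted p = 0.745), so that these 3 libraries are named by their label throughout. In bulk RNA, fewer cells of a type and less RNA per cell cannot be told apart.

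In Mfn1-/- MEFs most of the basement membrane collagens rose at every day, while Col1a2, 1 of the chains of type I collagen, was lower. In Mfn2-/- MEFs most fibrillar collagens were lower, Col1a2 lay below 1% of its WT level, and at day +8 the collagens as a group were lower. Calls below use limma on log2(normalised count + 1), with an adjusted p below 0.01 over all 14293 genes. Of the 34 collagen genes, 11 rose, 9 fell and 14 did not pass in Mfn1-/- MEFs at day -2, where 22.4% of all genes passed. The counts were 9, 10 and 15 at day 0 (21.5% of all genes passed), 8, 7 and 19 at day +3 (21.5%) and 6, 10 and 18 at day +8 (50.2%). For Mfn2-/- MEFs 6 rose, 13 fell and 15 did not pass at day -2 (35.5% of all genes), and 1 rose, 22 fell and 11 did not pass at day +8 (38.1%, with 21.0% of all genes lower). Fitted on the 6 libraries of the comparison alone, 5 collagens passed in Mfn1-/- MEFs at day +3 and 10 in the libraries labelled Mfn1-/- at day +8.

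The groups did not overlap for 26, 30, 13 and 15 of the 34 genes in Mfn1-/- against WT at days -2, 0, +3 and +8, beside 50.9%, 52.3%, 30.7% and 58.2% of all genes. For Mfn2-/- against WT they did not overlap for 24 genes at day -2 and 28 at day +8, beside 68.8% and 69.7% of all genes. Every collagen gene passed in at least 1 of the 6 comparisons with WT. Across all 6, Col4a6 was higher each time, and Col1a2, Col7a1, Col12a1 and Col16a1 were lower each time. The shares of all genes that passed at least once, or the same way in all 6, were not counted.

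**Figure D1:**
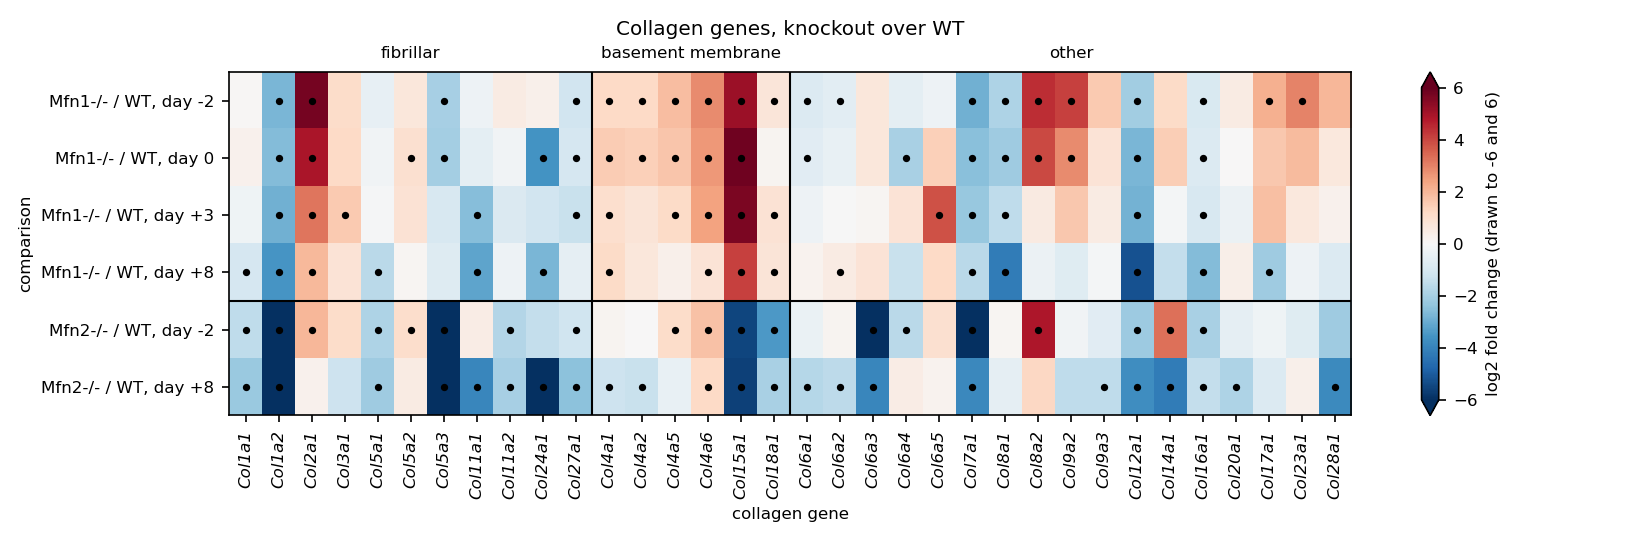
Log2 fold change of each of the 34 collagen genes (columns, by class) for both knockout lines against WT at each day (6 rows), with 3 libraries per group. Colour runs from -6 to 6, larger values are drawn at the end colour, and a dot marks an adjusted p below 0.01; the basement membrane columns are positive throughout the 4 Mfn1-/- rows, and 22 of the 34 genes fell in the Mfn2-/- row of day +8.

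Among the fibrillar collagens, 1 rose, 3 fell and 7 did not pass in Mfn1-/- MEFs at day -2, with a median log2 fold change of 0.05 (all genes -0.02). The type I chains behaved differently from each other. Col1a1 (chr11:94936224-94953042, GRCm38), which encodes the alpha 1 chain of type I collagen, had 140862, 155787 and 171371 normalised counts in Mfn1-/- libraries, against 129752, 149118 and 176036 in WT libraries, at day -2. The ranges overlapped, and the log2 fold change was 0.05 ± 0.30 (SE, adjusted p = 0.924). Col1a2 (chr6:4504814-4541544), the gene of the alpha 2 chain, had 13829, 22559 and 34852 in Mfn1-/- libraries, against 123959, 145404 and 186611 in WT libraries. All Mfn1-/- values lay below all WT values, and the mean was 15.6% of WT (log2 fold change -2.76 ± 0.45, adjusted p = 1.92e-05).

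Col1a2 stayed lower on the later days. At day 0 it had 17588, 45444 and 44170 in Mfn1-/- libraries, against 185301, 199926 and 205812 in WT libraries (-2.58, adjusted p = 4.76e-05). At day +3 the values were 8251, 25944 and 8203 in Mfn1-/- libraries, against 83762, 156407 and 55597 in WT libraries (-2.90, adjusted p = 9.93e-06). At day +8 the libraries labelled Mfn1-/- had 7215, 15565 and 16937, against 179558, 191393 and 89176 in WT libraries, a mean of 8.63% of WT (-3.55, adjusted p = 1.23e-07). On none of these days did the groups overlap. Col1a1 did not pass at day 0 (0.25, adjusted p = 0.57) or day +3 (-0.23, adjusted p = 0.596).

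At day +8 Col1a1 had 55775, 68406 and 74167 in the libraries labelled Mfn1-/-, against 196822, 177662 and 64607 in WT libraries. WT replicate C lay among the values labelled Mfn1-/-. The mean was 45.2% of WT (adjusted p = 0.00514). With the replicate letter as a block the adjusted p was 0.011, and it was 0.0586 without WT replicate A, 0.0447 without WT replicate B, 0.0298 without replicate A labelled Mfn1-/- and 0.0116 without its replicate B. WT replicate C was also the lowest WT library at day +8 for Col1a2, Col3a1, Col5a1, Col5a2 and Col11a1.

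Both type I chains fell in Mfn2-/- MEFs, to very different levels. Col1a1 had 21987, 20838 and 19120 in Mfn2-/- libraries, against 56403, 58179 and 63504 in WT libraries, at day -2 (-1.52 ± 0.30, adjusted p = 0.000103). At day +8 it had 21714, 21050 and 20605 in Mfn2-/- libraries, against 99396, 102597 and 93326 in WT libraries (-2.22, adjusted p = 3.69e-07). Every Mfn2-/- value was thus below every WT value at both days. Col1a2 had 182, 182 and 81.8 in Mfn2-/- libraries, against 71042, 72761 and 76976 in WT libraries, at day -2. Its mean was 0.202% of WT (log2 fold change -9.03 ± 0.45, adjusted p = 5.54e-16). The day +8 values were 303, 154 and 223 in Mfn2-/- libraries, against 118381, 122927 and 106500 in WT libraries, or 0.195% of WT (-9.04, adjusted p = 7.53e-16). The knockout effect on Col1a2 was smaller in Mfn1-/- than in Mfn2-/- MEFs by the test of the difference itself, by 6.27 ± 0.64 on the log2 scale at day -2 (adjusted p = 6.48e-09) and 5.49 ± 0.64 at day +8 (adjusted p = 4.65e-08).

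**Figure D2:**
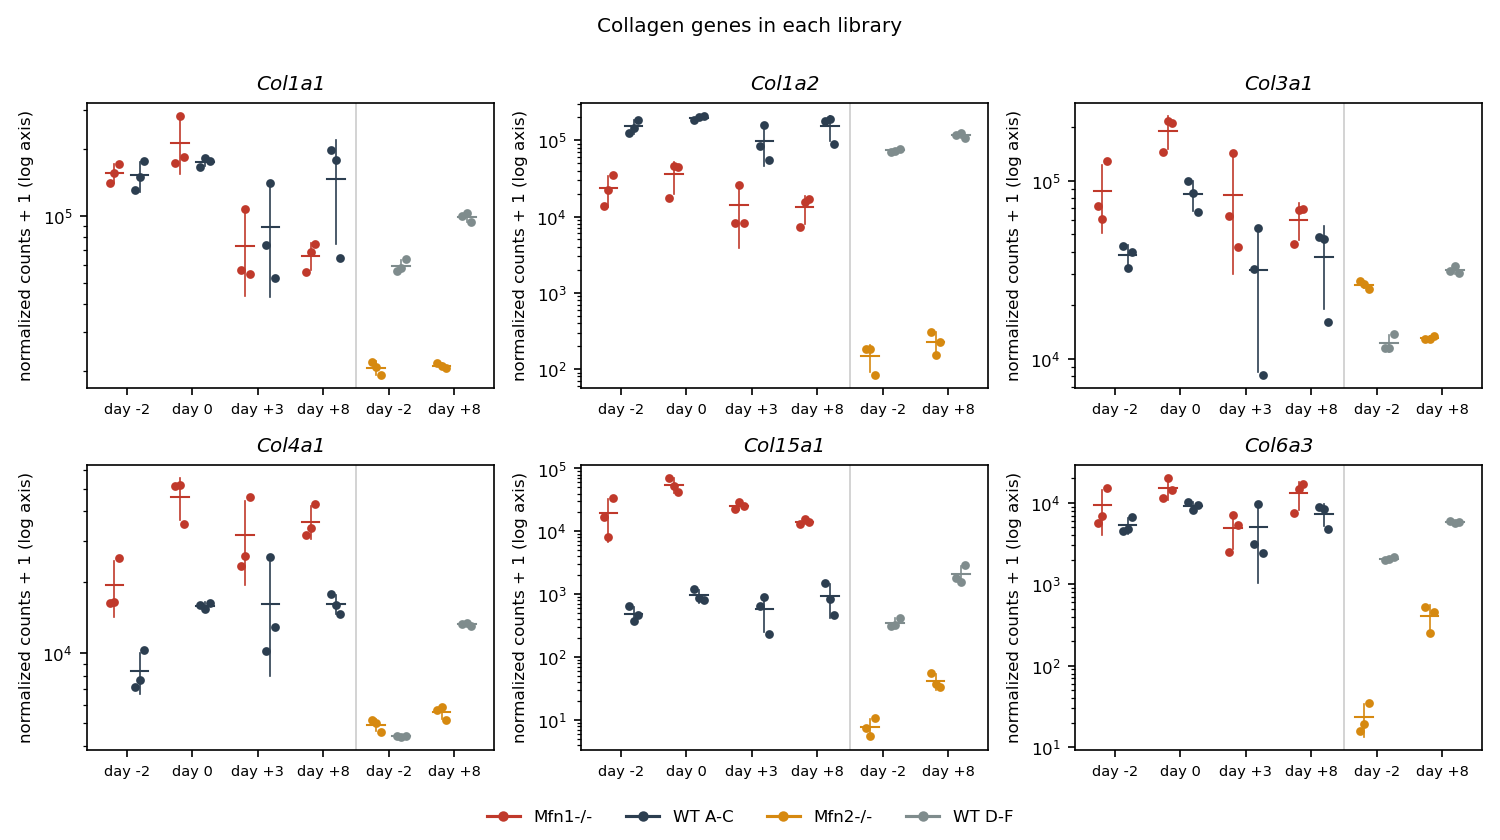
Normalised counts + 1 (log axis) of Col1a1, Col1a2, Col3a1, Col4a1, Col15a1 and Col6a3 in each library, by line and day. Points are libraries, horizontal bars are means, vertical lines are SDs (n = 3 each), and each knockout group stands left of its WT group; Col1a2 in Mfn2-/- libraries lies between 81.8 and 303, below every WT value, while Col15a1 lies above WT in Mfn1-/- and below WT in Mfn2-/- libraries.

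Col3a1 (chr1:45311538-45349706) encodes the chain of type III collagen, which forms thin fibres with type I. It had 71686, 61184 and 128019 in Mfn1-/- libraries, against 42979, 32394 and 39771 in WT libraries, at day -2. These groups did not overlap, yet the difference missed the threshold (1.11 ± 0.46, adjusted p = 0.0604), as it did at day 0 (1.18, adjusted p = 0.0493). At day +3 the values were 62918, 142013 and 42651 in Mfn1-/- libraries, against 32013, 54011 and 8093 in WT libraries (1.59, adjusted p = 0.00836). That call was lost with the replicate letter as a block (adjusted p = 0.0293), without WT replicate C (0.80, adjusted p = 0.125), and without Mfn1-/- replicate A (adjusted p = 0.0164) or B (adjusted p = 0.0835). At day +8 Col3a1 did not pass (0.83, adjusted p = 0.117). Mfn2-/- libraries had 27220, 26431 and 24704, against 11578, 11501 and 13819 in WT libraries, at day -2 (1.09, adjusted p = 0.0528). It had, at day +8, 12945, 12892 and 13516 in Mfn2-/- libraries, against 31046, 33282 and 30232 in WT libraries (-1.26, adjusted p = 0.0233). Neither difference passed, although the groups did not overlap on either day, in opposite directions. The spread behind these tests was estimated over all 36 libraries, including more variable groups such as WT at day +3 (8093 to 54011).

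The type V chains, which nucleate fibres of type I collagen, differed from each other. Col5a1 had 3370, 3147 and 3019 in Mfn2-/- libraries, against 11434, 11664 and 11623 in WT libraries, at day -2 (-1.87 ± 0.25, adjusted p = 2.23e-07). Later, at day +8, it had 4585, 3794 and 4048 in Mfn2-/- libraries, against 17876, 18118 and 17501 in WT libraries (-2.11, adjusted p = 2.43e-08). Col5a2 (chr1:45374321-45503282), the neighbour of Col3a1, moved the other way at day -2. It had 24720, 24317 and 20384 in Mfn2-/- libraries, against 11293, 11288 and 11150 in WT libraries (1.04 ± 0.26, adjusted p = 0.00128), and did not pass at day +8 (0.50, adjusted p = 0.107).

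In Mfn1-/- MEFs Col5a1 did not pass at day -2 (-0.49, adjusted p = 0.13), day 0 (-0.23, adjusted p = 0.514) or day +3 (-0.06, adjusted p = 0.874). At day +8 it had 5820, 8353 and 7737 in the libraries labelled Mfn1-/-, against 28741, 26024 and 13969 in WT libraries (-1.60 ± 0.25, adjusted p = 2.23e-06). All values labelled Mfn1-/- were below the WT range. Col5a2 rose at day 0, with 44816, 81436 and 68833 in Mfn1-/- libraries, against 32094, 33581 and 32200 in WT libraries (0.95, adjusted p = 0.00455). This call was lost when any of 5 of the 6 libraries was left out, with adjusted p between 0.0133 without WT replicate B and 0.0435 without Mfn1-/- replicate B. The log2 differences of Col5a2 at the other days were 0.66 (adjusted p = 0.0448), 0.85 (adjusted p = 0.0111) and 0.11 (adjusted p = 0.715), at days -2, +3 and +8.

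Col5a3, another type V chain, fell further in Mfn2-/- than in Mfn1-/- MEFs. At day -2 it had 6.38, 6.34 and 3.19 in Mfn2-/- libraries, against 1033, 1145 and 1252 in WT libraries (-7.55, adjusted p = 7.72e-15). At day +8 it had 2.18, 2.72 and 12.6 in Mfn2-/- libraries, against 547, 572 and 577 in WT libraries (-6.70, adjusted p = 1.58e-13). In Mfn1-/- libraries it had 458, 500 and 710 at day -2, against 3039, 2285 and 1551 in WT libraries (-2.01, adjusted p = 0.000499). The difference between the 2 effects at day -2 was 5.53 ± 0.60 (adjusted p = 2.31e-08).

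Col2a1 encodes type II collagen, the main fibrillar collagen of cartilage. At day -2 it had 1440, 2230 and 2041 in Mfn1-/- libraries, against 30.8, 35.6 and 36.9 in WT libraries (5.73 ± 0.51, adjusted p = 2.67e-10). The values of Col2a1 fell in Mfn1-/- MEFs over the following days but stayed above WT. The log2 fold changes were 4.92 at day 0 and 3.21 at day +3, and at day +8 the libraries labelled Mfn1-/- had 33.3, 76.8 and 282, against 22.6, 23.3 and 22.7 in WT libraries (1.93, adjusted p = 0.00168). Without replicate C labelled Mfn1-/- that value was 1.12 (adjusted p = 0.0369). Col2a1 had 150, 124 and 89.3 in Mfn2-/- libraries at day -2, against 26.3, 29.0 and 32.6 in WT libraries (1.98, adjusted p = 0.00184). That call was lost without Mfn2-/- replicate A (adjusted p = 0.012), and at day +8 the difference was 0.26 (adjusted p = 0.696).

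Beside Col2a1, 5 of 12 listed cartilage markers were in the table, and 4 of these 5 rose in Mfn1-/- MEFs at day -2. At that day 12.5% of all genes rose. The summed level of the 5 was 872 to 1082 in Mfn1-/- libraries and 317 to 504 in WT libraries at day -2. At day +8 the sum was not higher, at 198 to 264 in the libraries labelled Mfn1-/- against 254 to 288 in WT libraries. The sum in Mfn2-/- libraries was 200.2 to 241, with 1 of the 5 higher and 1 lower, against 601 to 668 in WT libraries at day -2. The part of other cell types in these collagen values was not tested. Col9a2, a chain of the cartilage collagen type IX, had 69.7, 84.6 and 55.5 in Mfn1-/- libraries, against 2.12, 3.34 and 3.90 in WT libraries (4.11, adjusted p = 3.38e-05).

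Col11a1 encodes a chain of type XI collagen, which regulates fibre width in cartilage and other tissues, and it was lower in the knockout lines late in the time course. It had 2056, 3381 and 779 in Mfn1-/- libraries, against 9438, 19378 and 5830 in WT libraries, at day +3 (-2.54, adjusted p = 2.09e-05). By day +8 it had 1389, 1601 and 1413 in the libraries labelled Mfn1-/-, against 14079, 17435 and 9317 in WT libraries (-3.17, adjusted p = 2.26e-07). Mfn2-/- libraries had 681, 614 and 753 at day +8, against 10311, 10879 and 9749 in WT libraries (-3.92, adjusted p = 7.03e-09). At day -2 the ranges overlapped in both lines (-0.28 in Mfn1-/-, adjusted p = 0.641, and 0.44 in Mfn2-/-, adjusted p = 0.413).

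Col27a1, a fibrillar collagen of growing cartilage, had 218, 271 and 173 in Mfn1-/- libraries, against 455, 502 and 483 in WT libraries, at day -2 (-1.14, adjusted p = 0.000461). Set against all 6 WT libraries of that day, this call was lost (-0.65, adjusted p = 0.0111). Col27a1 fell at both days in Mfn2-/- MEFs, with 92.6, 81.7 and 106 in Mfn2-/- libraries, against 519, 391.8 and 663 in WT libraries, at day +8 (-2.45, adjusted p = 7.44e-10). Col24a1 had 0 reads over the 3 Mfn2-/- libraries and 307 reads over the 3 WT libraries at day +8, so it was at least 99.0-fold higher in WT, with a floor of 3 reads over the group. Col11a2, a partner chain of Col11a1, fell in Mfn2-/- MEFs at both days (-1.75 and -1.98). The fibrillar class as a whole had 2 genes that rose, 6 that fell and 3 that did not pass in Mfn2-/- MEFs at day -2 (median -1.42). The class at day +8 had 8 that fell and 3 that did not pass (median -2.22).

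The basement membrane collagens rose together in Mfn1-/- MEFs. All 6 passed upward at day -2, with a median log2 fold change of 1.52 (all genes -0.02), and 5 of 6 rose at day 0 (median 1.59), 5 at day +3 (median 1.08) and 4 at day +8 (median 0.79). At each day 10.6% to 23.5% of all genes rose. The Mfn2-/- line had a mixed pattern, in which 2 rose, 2 fell and 2 did not pass at day -2 (median 0.10), and 1 rose, 4 fell and 1 did not pass at day +8 (median -1.30).

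Col4a1 and Col4a2 encode the chains of the type IV collagen found in nearly all basement membranes, and they lie head to head. Col4a1 is on the minus strand at chr8:11198423-11312826 and Col4a2 on the plus strand at chr8:11312805-11449287 (GRCm38), so that their gene models overlap by 22 bases at their starts. The start regions of both are shown because the genes share them and passed in the same direction in 3 of the 6 comparisons with WT. Each is 300 bases (RefSeq, GRCm38.p6), from 250 before the gene's start to 50 after it, at chr8:11312777-11313076 on the minus strand for Col4a1 and chr8:11312555-11312854 on the plus strand for Col4a2. Capitals mark the 78 bases that the windows share, read from opposite strands.
Col4a1: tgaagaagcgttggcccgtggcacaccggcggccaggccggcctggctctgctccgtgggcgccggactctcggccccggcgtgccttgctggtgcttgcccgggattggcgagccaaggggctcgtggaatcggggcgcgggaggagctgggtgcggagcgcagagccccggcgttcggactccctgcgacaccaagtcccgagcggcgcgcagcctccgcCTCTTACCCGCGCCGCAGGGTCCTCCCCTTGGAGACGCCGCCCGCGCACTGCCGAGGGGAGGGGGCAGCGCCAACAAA
Col4a2: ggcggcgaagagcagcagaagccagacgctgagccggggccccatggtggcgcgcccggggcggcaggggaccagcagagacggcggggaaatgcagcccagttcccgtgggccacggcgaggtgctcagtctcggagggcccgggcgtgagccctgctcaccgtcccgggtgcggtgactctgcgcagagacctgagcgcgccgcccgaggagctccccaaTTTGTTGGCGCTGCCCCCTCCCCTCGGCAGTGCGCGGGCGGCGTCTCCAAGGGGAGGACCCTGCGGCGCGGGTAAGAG
The letters CCAAT, searched on both strands, occur in 1 place in each of these windows, and in 37.4% of the 32851 windows of the same kind. The letters GGGCGG occur in 1 place in the Col4a1 window and 3 in the Col4a2 window, and in 35.7% of all windows. A match of letters is a description and not a binding site. Of the 34 collagen genes, 28 had a window in that table.

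Col4a1 had 16294, 16433 and 25389 in Mfn1-/- libraries, against 7140, 7619 and 10264 in WT libraries, at day -2 (1.20 ± 0.24, adjusted p = 0.000172). At day 0 it had 51297, 51775 and 35330 in Mfn1-/- libraries, against 15929, 15368 and 16344 in WT libraries (1.52, adjusted p = 6.79e-06). Both times each Mfn1-/- library was above each WT library. At day +3 the values were 23507, 25754 and 45902 in Mfn1-/- libraries, against 10130, 25534 and 12895 in WT libraries (1.02, adjusted p = 0.0011). The ranges overlapped through WT replicate B, and the call was lost without WT replicate A (adjusted p = 0.0189) and without Mfn1-/- replicate C (adjusted p = 0.0186), and with the replicate letter as a block among these 6 libraries alone (adjusted p = 0.119). At day +8 the libraries labelled Mfn1-/- had 31779, 33983 and 42773, against 17720, 15964 and 14653 in WT libraries (1.16, adjusted p = 9.87e-05).

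Col4a2 followed Col4a1. It had 9028, 8906 and 15944 in Mfn1-/- libraries, against 4196, 4282 and 5890 in WT libraries, at day -2 (1.20 ± 0.25, adjusted p = 0.000431), and 29872, 31354 and 20702 against 10176, 9636 and 10412 in WT libraries at day 0 (1.42, adjusted p = 5.48e-05). It did not pass at day +3 (0.78, adjusted p = 0.0177) or day +8 (0.66, adjusted p = 0.026). Neither gene passed in Mfn2-/- MEFs at day -2 (0.16, adjusted p = 0.622 for Col4a1, and 0.04, adjusted p = 0.922 for Col4a2), and both fell at day +8. Col4a1 had 5703, 5882 and 5171 in Mfn2-/- libraries, against 13281, 13392 and 13056 in WT libraries (-1.25, adjusted p = 5.37e-05). Col4a2 had 3420, 3715 and 3180 in Mfn2-/- libraries, against 9061, 8891 and 8427 in WT libraries (-1.36, adjusted p = 4.84e-05). The difference between the knockout effects at day +8 was 2.41 ± 0.33 for Col4a1 (adjusted p = 5.84e-07) and 2.01 ± 0.36 for Col4a2 (adjusted p = 2.88e-05), with the Mfn1-/- effect the higher.

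Col4a5 and Col4a6 encode type IV chains of more restricted basement membranes and lie head to head on the X chromosome, with 1308 bases between their gene models. Col4a6 had 6940, 7132 and 11628 in Mfn1-/- libraries, against 864, 1049 and 1743 in WT libraries, at day -2 (2.84 ± 0.25, adjusted p = 2.5e-10). The difference was of similar size at day 0 (2.60, adjusted p = 1.72e-09) and day +3 (2.40, adjusted p = 8.53e-09). The groups overlapped at day +8, with 1298, 2149 and 2349 in the libraries labelled Mfn1-/-, against 854, 970 and 1434 in WT libraries (0.82, adjusted p = 0.00594). Leaving out WT replicate A (adjusted p = 0.0426) or B (adjusted p = 0.0254), or replicate B (adjusted p = 0.0307) or C (adjusted p = 0.0419) labelled Mfn1-/-, ended that call. Col4a6 was the only basement membrane collagen that rose in Mfn2-/- MEFs at both days, with 1758, 1770 and 1747 in Mfn2-/- libraries, against 517, 483 and 573 in WT libraries, at day -2 (1.75, adjusted p = 9.94e-07). By day +8 it had 1088, 1205 and 1181 in Mfn2-/- libraries, against 527, 518 and 460 in WT libraries (1.21, adjusted p = 0.000196).

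Col4a5 had 9769, 9995 and 17568 in Mfn1-/- libraries, against 2402, 2979 and 5172 in WT libraries, at day -2 (1.84, adjusted p = 2.53e-06). It also rose at day 0 (1.67) and at day +3 (1.13, adjusted p = 0.00144), where the call was lost without WT replicate C (adjusted p = 0.0105) or Mfn1-/- replicate B (adjusted p = 0.0192). Mfn2-/- libraries had 3619, 3513 and 3137 at day -2, against 1532, 1495 and 1741 in WT libraries (1.11, adjusted p = 0.00102), and at day +8 the difference was -0.43 (adjusted p = 0.187).

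Col15a1 (chr4:47208161-47313167), which encodes a proteoglycan collagen that links basement membranes to the fibres beneath them, moved in opposite directions in the knockout lines. It had 17039, 8191 and 33892 in Mfn1-/- libraries, against 647, 368 and 459 in WT libraries, at day -2 (5.13 ± 0.44, adjusted p = 2.69e-10). At day 0 it had 70904, 51800 and 41756 in Mfn1-/- libraries, against 1206, 860 and 800 in WT libraries (5.83, adjusted p = 2.6e-11). At day +3 the values were 22516, 29139 and 25047 in Mfn1-/- libraries, against 641, 888 and 230 in WT libraries (5.64, adjusted p = 4.5e-11). Every Mfn1-/- value was above every WT value on these days. The same held at day +8, with 13109, 15885 and 14051 in the libraries labelled Mfn1-/-, against 1512, 852 and 463 in WT libraries (4.09, adjusted p = 7.6e-09). Col15a1 had 6.38, 4.53 and 9.56 in Mfn2-/- libraries at day -2, against 308, 319 and 420 in WT libraries (-5.52 ± 0.44, adjusted p = 1.84e-11). By day +8 it had 54.5, 36.3 and 32.5 in Mfn2-/- libraries, against 1790, 1590 and 2868 in WT libraries (-5.62, adjusted p = 1.71e-11). The knockout effects differed by 10.65 ± 0.62 at day -2 (adjusted p = 8.43e-14) and 9.70 ± 0.62 at day +8 (adjusted p = 5.77e-13), the largest difference among the 34 genes on each day. The antisense gene Gm12426, which overlaps 0.221% of the exon length of Col15a1, averaged 11.3 normalised counts in Mfn1-/- libraries and 0 in WT libraries at day -2, and 0.708 in Mfn2-/- libraries against 19.4 in WT libraries.

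Col18a1 encodes type XVIII collagen, the source of the fragment endostatin. It had 4793, 4206 and 5348 in Mfn1-/- libraries, against 3424, 3127 and 2247 in WT libraries, at day -2 (0.72 ± 0.19, adjusted p = 0.00298). The call was lost without WT replicate C (adjusted p = 0.0362), Mfn1-/- replicate A (adjusted p = 0.0107) or Mfn1-/- replicate C (adjusted p = 0.0222). It did not pass at day 0 (0.16, adjusted p = 0.556) and rose at day +3 (0.85, adjusted p = 0.000616, and 0.0104 without Mfn1-/- replicate C). At day +8 the libraries labelled Mfn1-/- had 1227, 2000 and 1434, against 997, 736 and 976 in WT libraries (0.77, adjusted p = 0.000721). This call too was lost without WT replicate B (adjusted p = 0.0103) or replicate B labelled Mfn1-/- (adjusted p = 0.0135). Col18a1 had 101, 123 and 98.8 in Mfn2-/- libraries at day -2, against 1153, 1193 and 1205 in WT libraries (-3.45, adjusted p = 3.74e-16). By day +8 it had 170, 148 and 155 in Mfn2-/- libraries, against 596, 680 and 546 in WT libraries (-1.93, adjusted p = 3.53e-10).

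Among the 17 other collagens, 4 rose, 6 fell and 7 did not pass in Mfn1-/- MEFs at day -2 (median 0.49), 2, 6 and 9 did so at day 0 (median 0.62), 1, 4 and 12 at day +3 (median 0.13) and 1, 5 and 11 at day +8 (median -0.74). Among the same genes 2 rose, 5 fell and 10 did not pass in Mfn2-/- MEFs at day -2 (median -0.54). At day +8 10 fell and 7 did not pass (median -1.54).

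Type VI collagen is built from the products of Col6a1, Col6a2 and Col6a3. Col6a3 (chr1:90765923-90843971), the gene of the largest chain, fell in Mfn2-/- MEFs and did not pass in Mfn1-/- MEFs. It had 14.9, 18.1 and 34.0 in Mfn2-/- libraries, against 2012, 2028 and 2162 in WT libraries, at day -2, a mean of 1.08% of WT (-6.55 ± 0.44, adjusted p = 4.86e-13). By day +8 it had 524, 249 and 451 in Mfn2-/- libraries, against 6010, 5631 and 5883 in WT libraries, or 6.99% of WT (-3.90, adjusted p = 2.22e-08). In Mfn1-/- MEFs its log2 fold changes were 0.67 (adjusted p = 0.248), 0.70 (adjusted p = 0.244), 0.13 (adjusted p = 0.854) and 0.80 (adjusted p = 0.117), in order of day.

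Col6a1 and Col6a2 are neighbours on chromosome 10. Col6a1 had 20386, 22279 and 25238 in Mfn1-/- libraries, against 35009, 39943 and 46223 in WT libraries, at day -2 (-0.83 ± 0.12, adjusted p = 2.5e-06). At day 0 it had 30989, 33181 and 27666 in Mfn1-/- libraries, against 48138, 47780 and 50916 in WT libraries (-0.68, adjusted p = 5.09e-05). The fall did not pass at day +3 (-0.30, adjusted p = 0.054), and at day +8 the difference was 0.19 (adjusted p = 0.173). Col6a2 had 10949, 11813 and 14423 in Mfn1-/- libraries, against 16791, 18403 and 22008 in WT libraries, at day -2 (-0.62 ± 0.16, adjusted p = 0.00228). That call was lost without WT replicate C (adjusted p = 0.0221), Mfn1-/- replicate A (adjusted p = 0.0194) or Mfn1-/- replicate B (adjusted p = 0.0113), and against all 6 WT libraries of the day (-0.25, adjusted p = 0.113). At days 0 and +3 Col6a2 did not pass (-0.45, adjusted p = 0.0242, and -0.04, adjusted p = 0.891).

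At day +8 Col6a2 had 16915, 21970 and 23416 in the libraries labelled Mfn1-/-, against 17197, 16295 and 11586 in WT libraries (0.47 ± 0.16, adjusted p = 0.00937). The groups overlapped, and the call was lost with the replicate letter as a block (adjusted p = 0.0341), without WT replicate C (0.30, adjusted p = 0.11), and without replicate B (adjusted p = 0.0367) or C (adjusted p = 0.0539) labelled Mfn1-/-. Col6a1 did not pass in Mfn2-/- MEFs at day -2 (-0.38, adjusted p = 0.0117), nor did Col6a2 (0.16, adjusted p = 0.428). Both fell at day +8. Col6a1 had 5866, 5590 and 6458 in Mfn2-/- libraries, against 19219, 19857 and 19004 in WT libraries (-1.70, adjusted p = 5.14e-13). Col6a2 had 3154, 2641 and 3447 in Mfn2-/- libraries, against 9239, 9212 and 8950 in WT libraries (-1.58, adjusted p = 6.28e-10).

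Several collagens that bind to fibre surfaces or anchor epithelia fell in both lines. Col12a1, a fibril-associated collagen, had 3032, 3435 and 2428 in Mfn1-/- libraries, against 7254, 11965 and 21682 in WT libraries, at day -2 (-2.07, adjusted p = 4.84e-05). At day +8 the libraries labelled Mfn1-/- had 455, 1103 and 1168, against 25679, 32496 and 36363 in WT libraries, a mean of 2.88% of WT (-5.22 ± 0.36, adjusted p = 1.69e-12). Mfn2-/- libraries had 805, 660 and 832 at day -2, against 3248, 3314 and 3961 in WT libraries (-2.20, adjusted p = 1.07e-05). At day +8 they had 759, 787 and 767, against 10908, 10182 and 10017 in WT libraries (-3.75, adjusted p = 1.03e-09). No knockout library reached a WT value of Col12a1 in these comparisons. Col7a1, the collagen of anchoring fibrils, had 412, 488 and 199.96 in Mfn1-/- libraries, against 2829, 3001 and 1869 in WT libraries, at day -2 (-2.87, adjusted p = 1.78e-07). Mfn2-/- libraries had 12.8, 11.8 and 9.56, against 1442, 1606 and 1445 in WT libraries, at day -2 (-6.93, adjusted p = 3.11e-16).

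Col16a1, another fibril-associated collagen, had 698, 786 and 916 in the libraries labelled Mfn1-/- at day +8, against 5824, 5795 and 3192 in WT libraries (-2.58, adjusted p = 2.44e-12). It fell in Mfn2-/- MEFs by 1.96 on the log2 scale at day -2 (adjusted p = 5.66e-10) and by 1.43 at day +8 (adjusted p = 3.27e-07). Col14a1, a fibril-associated collagen of skin and tendon, had 15.3, 9.98 and 18.9 in Mfn2-/- libraries, against 292, 260 and 288 in WT libraries, at day +8 (-4.20, adjusted p = 2.6e-05). At day -2 the same gene was near the detection limit in WT, with 17.02, 23.6 and 32.9 in Mfn2-/- libraries, against 2.92, 1.07 and 0.906 in WT libraries (3.31, adjusted p = 0.000502), a call that edgeR on the recovered reads did not make (adjusted p = 0.0148).

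The type VIII chains form the lattice of Descemet's membrane in the eye and are made by vessel walls. Col8a1 had 773, 585 and 675 in Mfn1-/- libraries, against 2125, 2307 and 2970 in WT libraries, at day -2 (-1.86, adjusted p = 6.1e-07). At day +8 the libraries labelled Mfn1-/- had 114, 71.2 and 151, against 2062, 1895 and 1995 in WT libraries (-4.20, adjusted p = 2.13e-14). Col8a1 did not pass in Mfn2-/- MEFs (0.14 at day -2, adjusted p = 0.694, then -0.53, adjusted p = 0.0751). The knockout effects on Col8a1 differed by -1.99 ± 0.35 at day -2 (adjusted p = 4.39e-05) and -3.67 ± 0.35 at day +8 (adjusted p = 6.98e-10). Col8a2 rose in both lines at day -2, and its knockout effects differed by -0.40 ± 0.86 (adjusted p = 0.766). It had 1926, 3158 and 8007 in Mfn1-/- libraries, against 136, 160 and 212 in WT libraries (4.45 ± 0.61, adjusted p = 1.51e-06). Mfn2-/- libraries had 3108, 3180 and 2728, against 91.5, 91.4 and 131 in WT libraries (4.85, adjusted p = 1.5e-07). At day +8 Col8a2 did not pass in either line (-0.37, adjusted p = 0.612, for the libraries labelled Mfn1-/- and 1.23, adjusted p = 0.0963, for Mfn2-/-).

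The remaining members had low counts. Col17a1 and Col23a1, transmembrane collagens, rose in Mfn1-/- MEFs at day -2 (2.14, adjusted p = 0.00742, and 2.97, adjusted p = 0.00224), but the call for Col17a1 was lost without any 1 of 5 libraries (adjusted p 0.011 to 0.0352) and that for Col23a1 without WT replicate B (adjusted p = 0.0329) or Mfn1-/- replicate C (adjusted p = 0.0162). In the Mfn2-/- comparison of day -2, Col28a1 had 0 reads over the 3 Mfn2-/- libraries and 13 over the WT libraries, and was at least 4.22-fold higher in WT. Col6a4 had 0 reads against 7 in WT libraries there, or at least 2.27-fold higher in WT. Col28a1 had 2 reads over the Mfn2-/- libraries against 62 in WT libraries at day +8, a ratio of 29.98 in favour of WT (95% exact interval 7.96 to 253, counting error only). Col6a5, Col9a3 and Col20a1 each passed in 1 comparison with WT, with log2 fold changes of 3.83 in Mfn1-/- at day +3, -1.54 in Mfn2-/- at day +8 and -1.87 in Mfn2-/- at day +8.

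Levels of different chains were compared per kilobase of exon. With the merged exons as length, Col1a1 ranked first among the collagens in every group, with mean levels of 1520 reads per kilobase (scaled to library size) in Mfn1-/- libraries and 1463 in WT libraries at day -2, and 334 in Mfn2-/- libraries against 907 in WT libraries. On the same lengths Col1a2 ranked among the first 3 in every WT group and was outside the first 4 places in every knockout group. On this scale the ratio of Col1a1 to Col1a2 ran from 7.80 to 19.3 over the Mfn1-/- libraries of days -2, 0 and +3, from 8.29 to 14.6 over the libraries labelled Mfn1-/- at day +8 and from 136 to 442 over the 6 Mfn2-/- libraries, against 1.37 to 2.08 over the 18 WT libraries. Neither knockout range overlapped the WT range or the other, with or without the libraries labelled Mfn1-/- at day +8. With the longest transcript as length the ratio was 0.653 to 0.989 over the 18 WT libraries, so that Col1a2 stood above Col1a1 in each of them. In Mfn2-/- libraries at day -2 Col3a1 took more reads than Col1a1 (means of 0.277% and 0.219% of all reads). Its longest transcript is shorter (5564 against 5930 bases), so by that length Col3a1 stood above Col1a1 there. The level of a ratio and the rank of the chains thus depend on the length chosen, but the relative differences of a ratio between libraries do not.

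Other chain pairs were less or more bound to each other. Col4a1 to Col4a2 stayed between 1.19 and 1.84 over all 36 libraries, in which Col4a1 ran from 6479 to 47568 counts rescaled by trimmed means. At day +8 that ratio was 1.56 to 1.84 in the libraries labelled Mfn1-/- and 1.19 to 1.20 in WT libraries. It was 1.76 to 1.77 in Mfn2-/- libraries and 1.59 to 1.66 in WT libraries at day -2. The Mfn1-/- and WT ranges of day -2 overlapped. Col6a1 to Col6a2 stayed between 2.51 and 4.96. At day -2 it was 3.33 to 3.59 in Mfn1-/- libraries against 3.96 to 4.13 in WT libraries. For Mfn2-/- it was 2.91 to 3.17 against 4.36 to 4.48, and the ranges of day +8 overlapped. The ratio of Col5a1 to Col5a2 was 0.146 to 0.167 in Mfn2-/- libraries and 1.14 to 1.18 in WT libraries at day -2, and 0.358 to 0.589 in Mfn1-/- libraries against 0.951 to 1.15 in WT libraries. A further 2 ratios were chosen after the values had been seen. Col6a3 to Col6a1 was 0.000446 to 0.00107 in Mfn2-/- libraries against 0.0469 to 0.0496 in WT libraries at day -2. Col4a6 to Col4a5 was 0.558 to 0.601 in Mfn1-/- libraries and 0.284 to 0.303 in WT libraries at day -2, and 0.409 to 0.469 in Mfn2-/- libraries against 0.272 to 0.284 in WT libraries.

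**Figure D3:**
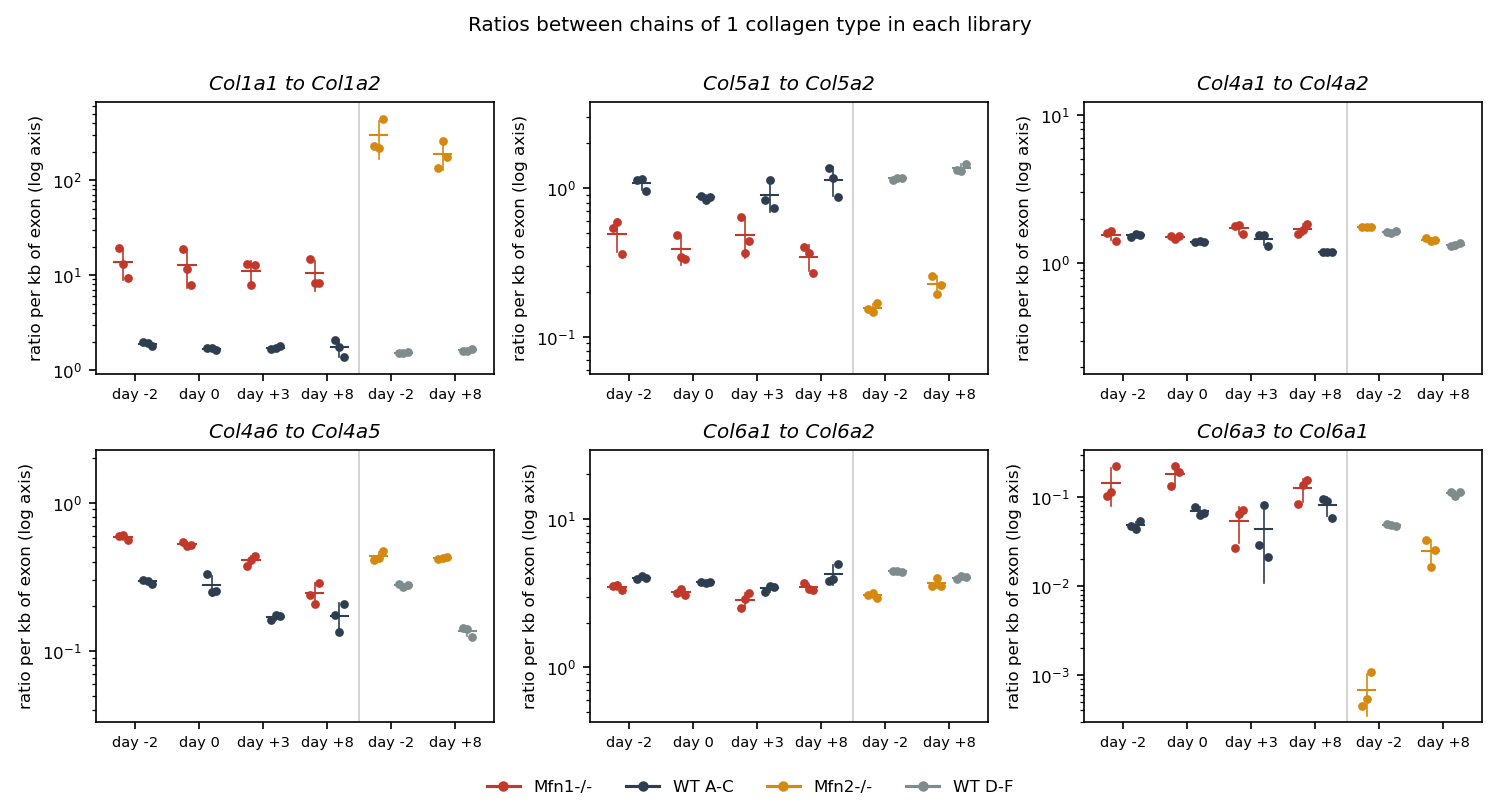
Ratio of 2 chains' levels per kilobase of exon in each library (log axis), by line and day, with each knockout group left of its WT group. Points are libraries, bars are means and vertical lines are SDs (n = 3 each). Col1a1 to Col1a2 is 7.80 to 19.3 in Mfn1-/- (day +8 as labelled), 136 to 442 in Mfn2-/- and 1.37 to 2.08 in WT libraries. These ranges do not overlap. Col4a1 to Col4a2 stays between 1.19 and 1.84 over all libraries. Within some days it still differs from WT, as at day +8 (1.56 to 1.84 as labelled Mfn1-/- against 1.19 to 1.20).

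As a share of all reads assigned to genes, the 34 collagens took 1.12% to 1.25% in Mfn2-/- libraries and 2.09% to 2.28% in WT libraries at day -2. At day +8 they took 0.865% to 0.880% in Mfn2-/- libraries, against 3.49% to 3.75% in WT libraries. Both times the groups were apart. In Mfn1-/- libraries the share was 2.51% to 3.68%, against 2.83% to 3.69% in WT libraries, at day -2, and at day +8 it was 1.74% to 2.89% in the libraries labelled Mfn1-/-, against 2.66% to 4.93% in WT libraries. These ranges overlapped. Shares depend on all other genes as well, and 3 libraries against 3 cannot give an exact permutation p below 0.10, so no test was made.

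Basement membrane collagens took a larger share in Mfn1-/- MEFs at every day. The share was 0.352% to 0.691% in Mfn1-/- libraries and 0.121% to 0.161% in WT libraries at day -2, 0.698% to 0.996% against 0.199% to 0.218% in WT libraries at day 0, and 0.512% to 0.729% against 0.151% to 0.331% in WT libraries at day +3. At day +8 it was 0.466% to 0.675% in the libraries labelled Mfn1-/-, against 0.271% to 0.300% in WT libraries. In Mfn2-/- libraries it was 0.127% to 0.140% against 0.103% to 0.108% in WT libraries at day -2, and 0.122% to 0.131% against 0.275% to 0.283% at day +8. Of the collagen reads alone, fibrillar genes made up 52.8% ± 2.05 in the libraries labelled Mfn1-/-, against 73.2% ± 8.66 in WT libraries at day +8 (SD, n = 3 each). Basement membrane genes made up 24.4% ± 2.00 against 7.37% ± 2.43 in WT libraries.

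**Figure D4:**
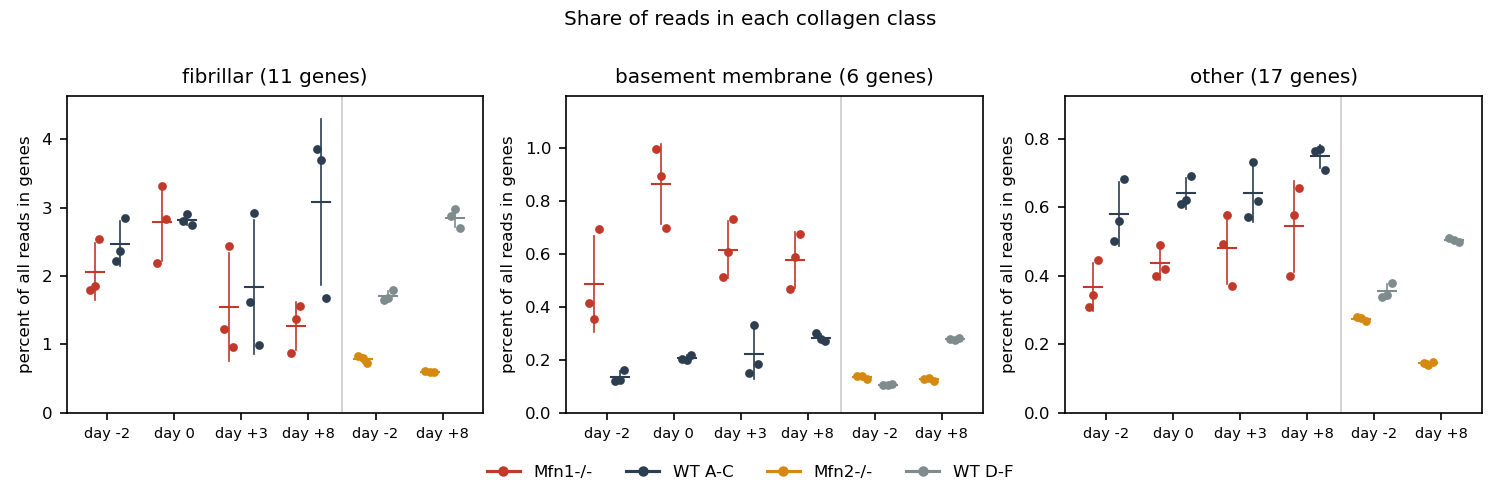
Percent of the reads assigned to genes that fell in the fibrillar (11 genes), basement membrane (6) and other (17) collagens, by line and day. Points are libraries, bars are means and vertical lines are SDs (n = 3 each), with each knockout group left of its WT group; the basement membrane share is above WT in Mfn1-/- libraries on all 4 days, and at day +8 it is 0.122% to 0.131% in Mfn2-/- libraries against 0.275% to 0.283% in WT libraries.

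Changes with time were tested on values rescaled by trimmed means (TMM), because the deposited scale differs between the 6 pairs of groups. Between day +8 and day -2, 9 collagen genes rose, 2 fell and 23 did not pass in WT libraries A to C, where 15.3% of all genes passed. In WT libraries D to F 10 rose, 2 fell and 22 did not pass (25.3% of all genes). The Mfn1-/- line, with day +8 as labelled, had 7 that rose, 11 that fell and 16 that did not pass (43.2%), and the Mfn2-/- line 5, 3 and 26 (17.6%). Fitted on the libraries of 1 comparison alone, the counts called were 26 in WT libraries D to F and 15 in the Mfn2-/- line, and the replicate letter as a block also gave 26 in WT libraries D to F, so the lines cannot be ranked by these counts. The WT sets share no library, and 10 genes passed in the same direction in both, with Col11a1, Col24a1, Col4a1, Col4a2, Col8a2, Col12a1, Col14a1 and Col20a1 higher and Col7a1 and Col18a1 lower at day +8. The share of all genes that did so was not counted.

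Several fibril-associated and fibril-regulating collagens were higher at day +8 in WT MEFs. Col14a1 averaged 532 ± 393 rescaled counts at day +8 and 14.4 ± 8.40 at day -2 in WT libraries A to C (4.75 ± 0.74, adjusted p = 2.49e-05), and 386 ± 25.3 against 2.44 ± 1.68 in WT libraries D to F (6.92, adjusted p = 3.19e-08). Col11a1 averaged 14998 ± 4565 at day +8 and 1956 ± 1022 at day -2 in WT libraries A to C (3.01, adjusted p = 4.54e-06), and 14191 ± 711 against 911 ± 121 in WT libraries D to F (3.97, adjusted p = 2.35e-08). Col8a2 rose in both sets (3.19, adjusted p = 0.000308, and 2.73, adjusted p = 0.00086). The type IV pair also rose in both WT sets, Col4a1 by 1.20 and 1.47 and Col4a2 by 1.57 and 1.75 on the log2 scale. Col7a1 and Col18a1 were the genes that fell. Col7a1 averaged 323 ± 63.4 at day +8 and 2402 ± 577 at day -2 in WT libraries A to C (-2.88, adjusted p = 6.75e-07), and -3.07 was the log2 change in WT libraries D to F (adjusted p = 9.1e-08). Col18a1 averaged 994 ± 157 against 2744 ± 580 in WT libraries A to C (-1.45, adjusted p = 8.38e-07), with -1.08 in WT libraries D to F (adjusted p = 3.08e-05).

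In the Mfn1-/- line the largest falls among genes averaging 100 or more in the higher group were of Col2a1, with 146 ± 147 rescaled counts at day +8 as labelled and 1727 ± 385 at day -2 (-4.06, adjusted p = 9.29e-08), Col8a1 (-2.34, adjusted p = 3.64e-09) and Col16a1 (-2.12, adjusted p = 1.9e-10). Col20a1, a fibril-associated collagen, averaged 260.2 ± 15.7 at day +8 as labelled and 45.8 ± 29.6 at day -2 (2.65, adjusted p = 1.44e-07). Col4a1 rose by 1.23 (adjusted p = 5.22e-05) and Col27a1 by 1.19 (adjusted p = 0.000131). In the Mfn2-/- line Col6a3 averaged 578 ± 204 at day +8 and 33.3 ± 15.3 at day -2 (4.10 ± 0.44, adjusted p = 5.9e-08). Col2a1 (-2.51, adjusted p = 0.000363), Col6a2 (-1.36, adjusted p = 6.98e-08) and Col6a1 (-1.09, adjusted p = 4.15e-08) were the collagens that fell in Mfn2-/- MEFs.

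**Figure D5:**
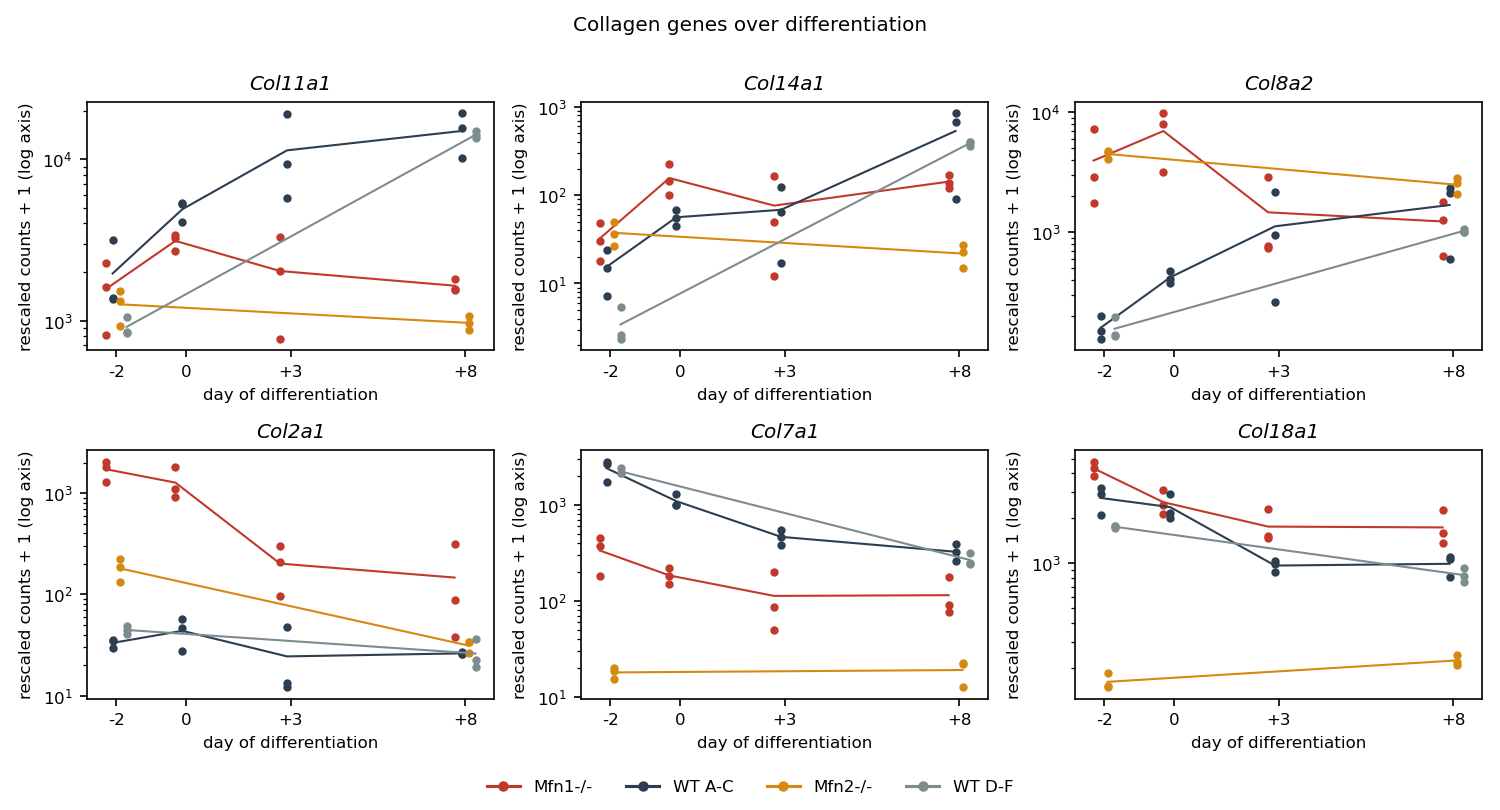
TMM-rescaled counts + 1 (log axis) of Col11a1, Col14a1, Col8a2, Col2a1, Col7a1 and Col18a1 by day, in Mfn1-/-, WT A to C, Mfn2-/- and WT D to F libraries. Points are libraries and lines join the means (n = 3 each); Col11a1 and Col14a1 are higher at day +8 than at day -2 in both WT sets, and Col2a1 lies lower at day +8 in both knockout lines.

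Few collagens were called at the step between day -2 and day 0, where few genes of any kind were called. In WT libraries A to C 2.81% of all genes passed, and 14 collagens had an unadjusted p below 0.05, 13 of them higher at day 0. The count of collagens called there was 1, a rise of Col24a1 (102 ± 9.73 rescaled counts at day 0 and 10.9 ± 6.90 at day -2, log2 change 3.27, adjusted p = 0.00596). With a pseudocount of 0.5 that count was 0. It was also 0 without any 1 of the WT libraries of these days except replicate C of day -2, without which it was 2. In the Mfn1-/- line limma called 0 collagens and 0.112% of all genes at this step, while 10 collagens had an unadjusted p below 0.05 and both edgeR and DESeq2 called 0. Without Mfn1-/- replicate C of day -2 limma called 2. Between day 0 and day +3, 5 collagens fell in WT libraries A to C (Col5a3, Col4a6, Col18a1, Col6a4 and Col8a1, 11.3% of all genes passed), led by Col5a3 with 386 ± 231 at day +3 and 2503 ± 1105 at day 0 (-2.78, adjusted p = 3.58e-05). In the Mfn1-/- line 2 rose (Col6a1 and Col6a2) and 10 fell at that step (17.7% of all genes). With the replicate letter as a block 5 collagens passed there, and without Mfn1-/- replicate A of day 0, B of day 0 or A of day +3 the counts were 6, 5 and 4. In WT libraries the count was 12 without replicate B of day +3, and 3 without replicate C of day 0, A of day +3 or C of day +3. Between day +3 and day +8, Col27a1 and Col8a1 rose in WT libraries A to C (6.17% of all genes), and 5 rose and 4 fell in the Mfn1-/- line (34.0%). The WT count there was 10 without replicate B of day +3, 5 without replicate C of day +8, and 1 without any of the other 4 libraries.

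The response to differentiation was compared between lines by the difference of the day +8 over day -2 changes. It differed for 12 collagens in Mfn1-/- MEFs with day +8 as labelled (2 higher and 10 lower than in WT, beside 26.7% of all genes) and for 14 in Mfn2-/- MEFs (3 higher and 11 lower, beside 15.5%). Col6a1 and Col6a2 were the pair with a higher response in Mfn1-/- MEFs (1.02 ± 0.17, adjusted p = 2.61e-05, and 1.10 ± 0.22, adjusted p = 0.000228). Both had a lower response in Mfn2-/- MEFs (-1.32, adjusted p = 1.11e-06, and -1.74, adjusted p = 7.65e-07). The response of Col8a2 was lower in both lines (-4.82, adjusted p = 7.68e-05, in Mfn1-/- and -3.62, adjusted p = 0.00245, in Mfn2-/-). That of Col11a1 was lower too (-2.89, adjusted p = 0.000332, and -4.36, adjusted p = 3.23e-06).

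The 2 knockout effects differed from each other for 16 collagens at day -2 (14 higher in Mfn1-/- and 2 lower, beside 20.9% of all genes) and 17 at day +8 (15 higher and 2 lower, beside 37.0%). At day -2 Col15a1 and Col18a1 passed upward in Mfn1-/- and downward in Mfn2-/- MEFs. At day +8 Col4a1, Col15a1, Col18a1 and Col6a2 did so. The WT sets differed from each other for 3 collagens at day -2, Col27a1 (-1.08), Col6a1 (-0.69) and Col6a2 (-0.83), all lower in libraries D to F, beside 20.4% of all genes. That count was 5 with edgeR or DESeq2, 7 on the libraries of the comparison alone and 20 on the deposited scale. At day +8 Col15a1 was higher (1.58) and Col6a1 (-0.43) and Col12a1 (-1.27) were lower in libraries D to F than in A to C, beside 20.5%. The day +8 count of 3 was 1 without WT replicate A or E and 0 without WT replicate B, D or F.

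Genes that modify, fold and cut procollagen were read as a list of 32, of which 30 were tested. In Mfn1-/- MEFs 8 rose, 3 fell and 19 did not pass at day -2, beside 22.4% of all genes that passed, and 9 rose, 7 fell and 14 did not pass in the libraries labelled Mfn1-/- at day +8, beside 50.2%. In Mfn2-/- MEFs 2 rose, 11 fell and 17 did not pass at day -2, beside 35.5%, and 5 rose, 8 fell and 17 did not pass at day +8, beside 38.1%. Median log2 fold changes of the list were 0.19, -0.22, -0.28 and -0.14 in that order, beside -0.02, -0.07, -0.02 and -0.03 for all genes. Pcolce, the enhancer of procollagen C-proteinase, was the gene that fell in all 4. It averaged 10627 ± 528 in Mfn1-/- libraries and 17047 ± 695 in WT libraries at day -2 (-0.68, adjusted p = 9.33e-05), and 5421 ± 1054 in the libraries labelled Mfn1-/-, against 15376 ± 3383 in WT libraries at day +8 (-1.50, adjusted p = 3.22e-11). In Mfn2-/- libraries it averaged 1497 ± 67.8 against 8115 ± 178 at day -2 (-2.44, adjusted p = 1.98e-16) and 1944 ± 35.9 against 9695 ± 752 at day +8 (-2.31, adjusted p = 9.98e-16).

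Procollagen N-proteinase genes moved in opposite directions in Mfn1-/- MEFs at day -2. Adamts3 averaged 105 ± 15.0 in Mfn1-/- libraries and 9.08 ± 2.92 in WT libraries (3.43, adjusted p = 2.67e-07), Adamts2 2311 ± 681 against 518 ± 91.4 (2.13, adjusted p = 6.82e-06), and Adamts14 297 ± 22.8 against 812 ± 222 (-1.41, adjusted p = 1.9e-05). P4ha3, a subunit of prolyl 4-hydroxylase, averaged 1165 ± 194 against 252 ± 76.6 in WT libraries (2.24, adjusted p = 1.18e-05). Mia2, which helps procollagen leave the endoplasmic reticulum, fell by 0.48 (adjusted p = 0.000515). At day +8 Pcolce2 (2.74, adjusted p = 9.29e-09), Plod1 (1.17, adjusted p = 6.71e-05) and P4ha2 (1.16, adjusted p = 0.000923) rose, and P3h2 (-1.80, adjusted p = 0.000124) and Bmp1, the procollagen C-proteinase (-1.70, adjusted p = 2.21e-07), fell in the libraries labelled Mfn1-/-. The P4ha2 call was lost without WT replicate C (adjusted p = 0.0104) or replicate A labelled Mfn1-/- (adjusted p = 0.0106).

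P3h3 and P3h4, partners in a complex that modifies collagen lysines, went opposite ways in Mfn2-/- MEFs. P3h3 averaged 32.8 ± 9.55 in Mfn2-/- libraries and 333 ± 24.1 in WT libraries at day -2 (-3.34, adjusted p = 2.32e-13), and P3h4 2098 ± 84.8 against 754 ± 14.5 (1.47, adjusted p = 1.12e-11). The same held at day +8 (-2.92, adjusted p = 7.18e-12, for P3h3 and 1.18, adjusted p = 1.83e-09, for P3h4). Adamts14 fell at day -2 (-3.60, adjusted p = 4.46e-14). At day +8 Tmem38b, an ion channel of the endoplasmic reticulum needed for collagen modification (1.27, adjusted p = 1.84e-06), and Plod2, a lysyl hydroxylase (0.80, adjusted p = 0.00158), rose, and Creb3l1, a transcription factor for collagen genes, fell (-1.25, adjusted p = 0.000169). The Plod2 call was lost without Mfn2-/- replicate C (adjusted p = 0.0128).

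Of 12 collagen receptor genes 10 were tested. In Mfn1-/- MEFs 2 rose, 1 fell and 7 did not pass at day -2, beside 22.4% of all genes that passed, and 1 rose, 8 fell and 1 did not pass in the libraries labelled Mfn1-/- at day +8, beside 50.2% (median -1.79, all genes -0.07). In Mfn2-/- MEFs 3 rose, 5 fell and 2 did not pass at day -2, beside 35.5%, and 2, 3 and 5 did so at day +8, beside 38.1%. Ddr1, a receptor kinase, rose in all 4, with 3662 ± 128 in Mfn2-/- libraries and 1030 ± 12.4 in WT libraries at day -2 (1.83, adjusted p = 4.45e-11). Its log2 fold changes were 0.69 (adjusted p = 0.00115) in Mfn1-/- at day -2, 0.75 (adjusted p = 0.000201) in the libraries labelled Mfn1-/- at day +8 and 1.75 (adjusted p = 1.48e-10) in Mfn2-/- at day +8. Its relative Ddr2 fell at day -2 in Mfn1-/- (-1.11, adjusted p = 0.00211) and Mfn2-/- MEFs (-1.07, adjusted p = 0.00183), and the Mfn1-/- call was lost without WT replicate C (adjusted p = 0.0111) or Mfn1-/- replicate A (adjusted p = 0.0327).

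Itga11, the integrin subunit for fibrillar collagens, averaged 28.8 ± 1.74 in Mfn2-/- libraries and 274 ± 8.18 in WT libraries at day -2 (-3.20, adjusted p = 3.27e-08), and 44.2 ± 12.8 against 1041 ± 135 at day +8 (-4.55, adjusted p = 3.35e-11). In the libraries labelled Mfn1-/- at day +8 it averaged 244 ± 145, against 2227 ± 112 in WT libraries (-3.38, adjusted p = 1.06e-08), and Itga1, another collagen-binding integrin subunit, 277 ± 83.6 against 1302 ± 189 (-2.26, adjusted p = 6.38e-07). Mrc2, an endocytic collagen receptor, fell in Mfn2-/- MEFs at day -2 (-2.05, adjusted p = 6.87e-11) and day +8 (-2.26, adjusted p = 1.03e-11). Adgrg1, an adhesion receptor for type III collagen, averaged 1602 ± 129 in Mfn2-/- libraries and 182 ± 17.8 in WT libraries at day -2 (3.13, adjusted p = 3.85e-10) and rose at day +8 too (3.06, adjusted p = 7.94e-10). Adgrg6, an adhesion receptor for type IV collagen, averaged 38.8 ± 10.8 in the libraries labelled Mfn1-/-, against 588 ± 57.0 in WT libraries at day +8 (-3.92, adjusted p = 6.66e-13). At day -2 it had passed upward in Mfn1-/- (1.14, adjusted p = 0.00174) and Mfn2-/- MEFs (0.96, adjusted p = 0.00476). The Mfn1-/- call was lost without WT replicate A (adjusted p = 0.0233), WT replicate B (adjusted p = 0.0129) or Mfn1-/- replicate C (adjusted p = 0.0105). The Mfn2-/- call was lost without WT replicate E (adjusted p = 0.0277), WT replicate F (adjusted p = 0.0108), Mfn2-/- replicate A (adjusted p = 0.0232) or Mfn2-/- replicate B (adjusted p = 0.0174), and against all 6 WT libraries of the day (adjusted p = 0.0754).

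Markers of other cell types moved with these groups. The summed level of the 8 mesothelial markers in the table (of 10) was 35235 to 39397 in Mfn2-/- libraries and 1320 to 1392 in WT libraries at day -2, and 15266 to 16056 against 260 to 354 at day +8, and 7 of the 8 rose on both days. The sum was led by Upk3b, with 16728 to 18473 in Mfn2-/- libraries and at most 1.95 in WT libraries at day -2. In Mfn1-/- libraries the same sum was 2446 to 4429, against 2847 to 4643 in WT libraries, at day -2, with 6 of the 8 genes higher and 1 lower. The 9 fibroblast markers (of 10) summed to 43522 to 51080 in Mfn2-/- libraries and 65391 to 69298 in WT libraries at day -2 (1 rose and 5 fell), and to 46035 to 104961 in the libraries labelled Mfn1-/-, against 132112 to 158382 in WT libraries at day +8, where 6 fell and 3 did not pass. At day -2 the fibroblast sum was higher in Mfn1-/- libraries, at 207431 to 214917 against 140475 to 178507 in WT libraries.

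The 6 adipocyte markers (of 10) summed to 179084 to 205905 in the libraries labelled Mfn1-/-, against 12050 to 15217 in WT libraries at day +8, and all 6 rose. In Mfn2-/- libraries they summed to 1852 to 2087, against 22654 to 45747 in WT libraries, at day +8, and all 6 fell. At day -2 the same sum was 1664 to 1940 in Mfn2-/- libraries and 238 to 252 in WT libraries, where 4 rose and 2 fell, and 2858 to 6219 in Mfn1-/- libraries and 423 to 579 in WT libraries, where 3 rose and 3 did not pass. Pparg, the adipogenic regulator, was at 0 in all 3 Mfn2-/- libraries at day -2, against 61.3 to 69.9 in WT libraries. Kdr, the only 1 of 6 listed endothelial markers in the table, had 681 to 690 in Mfn2-/- libraries and 0 to 2.92 in WT libraries at day -2. The part of these shifts in cell type markers in the collagen values was not tested.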

How the data were processed

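RNA from WT, Mfn1-/- and Mfn2-/- MEFs was sequenced as paired-end reads. Per the study's methods, cutadapt removed adapter sequence, STAR mapped the reads onto GRCm38, and featureCounts, after samtools, assigned them to genes. Versions and use of strand are not given in the sources used here. The deposited unit is a signal, normalised counts per gene, which the authors made by dividing gene counts by 1 factor per library. Whole reads were recovered for 100.0% of values (within 0.01 of a whole number). Of 16623 lines, 19 symbols in repeated identical lines were merged, leaving 14761 genes, of which 14733 (99.81%) matched 1 gene of GENCODE vM21. The number of unmapped columns was 0. The columns of Mfn2-/- libraries carry letters A to C where the labels have D to F, so they were assigned to their group only.

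limma 3.58.1 (R 4.3.3, trend and robust) was fitted to log2(value + 1) of 14293 genes with at least 10 in at least 3 of 36 libraries, with 12 group means and Benjamini-Hochberg adjustment over all genes. Fold changes on this scale understate changes of low genes. Each gene had 1 estimate of spread over all 36 libraries, so variable groups also widen the SEs of steadier ones. Knockout contrasts used the deposited scale, and contrasts between days or WT sets used TMM (edgeR 4.0.16). Alternatives were pseudocounts of 0.5 and 5, no filter or a filter of 50, another scale, edgeR and DESeq2 1.42.0 on recovered reads, only the libraries compared, all 6 WT libraries, no genes overlapped on the opposite strand, the replicate letter as a block, and each library left out. edgeR called 21, 20, 15 and 15 collagens in Mfn1-/- against WT in order of day, and 17 and 22 in Mfn2-/-. The code was tested on simulated data.

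Letters shared by Mfn1-/- and WT libraries were checked by the correlation of same-letter deviations from group means. The correlations were 0.304, 0.423 and 0.538 at day +3 and 0.197, 0.185 and 0.285 at day +8, where the letters were taken to pair the libraries. They were 0.042, 0.199 and 0.22 at day -2 and 0.101, 0.067 and 0.161 at day 0, where pairing by letter is uncertain. The main calls used no block on any day. For Mfn1-/- comparisons the replicate block was fitted to all Mfn1-/- and WT A to C libraries together. It had the same letter effect on every day, so it is not a pairing within a day. A block within the libraries of a day was fitted for days +3 and +8. Of that fit only the Col4a1 value of day +3 is given here. Ranges are over libraries, and counting intervals are exact 95% intervals of counting error only. Per-length levels used merged exons of GENCODE vM21, and promoter windows came from RefSeq.

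Members and lists were chosen with earlier results of these data known. Values were described for 12 chains in every comparison with WT, and, at days -2 and +8, for up to 3 rises and 3 falls per class or list with the largest fold changes, provided that the higher group averaged 100 or more. The same was done over all classes between days. Col9a2, Col11a2 and the low-count genes were named after their values were seen.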

Additional observations from a re-analysis of the deposited data

Results flagged for a closer look

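The following collagen genes differed between lines by a test of the difference itself (log2 scale, limma, adjusted p over all 14293 genes). The response to differentiation, the change at day +8 as labelled against day -2, was higher in Mfn1-/- than in WT MEFs for Col6a1 (1.02, adjusted p = 2.61e-05) and Col6a2 (1.10, adjusted p = 0.000228). It was lower for Col2a1 (-3.80, adjusted p = 0.000131), Col11a1 (-2.89, adjusted p = 0.000332), Col8a1 (-2.34, adjusted p = 5.71e-06), Col8a2 (-4.82, adjusted p = 7.68e-05) and Col16a1 (-1.67, adjusted p = 1.87e-05).

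In Mfn2-/- against WT MEFs the response was higher for Col6a3 (2.65, adjusted p = 0.00217), Col18a1 (1.52, adjusted p = 6.67e-05) and Col7a1 (3.07, adjusted p = 3.65e-05). It was lower for Col3a1 (-2.35, adjusted p = 0.00781), Col4a1 (-1.41, adjusted p = 0.0021), Col4a2 (-1.39, adjusted p = 0.00432), Col6a1 (-1.32, adjusted p = 1.11e-06), Col6a2 (-1.74, adjusted p = 7.65e-07), Col11a1 (-4.36, adjusted p = 3.23e-06), Col24a1 (-5.20, adjusted p = 0.000248), Col27a1 (-1.24, adjusted p = 0.00792), Col8a2 (-3.62, adjusted p = 0.00245) and Col14a1 (-7.51, adjusted p = 4.62e-06). The Col3a1 call was lost without any 1 of the 12 libraries (adjusted p 0.0121 to 0.0182). Col24a1 had 0 reads in Mfn2-/- libraries at day +8, and its difference did not pass with edgeR (adjusted p = 0.275) or DESeq2 (adjusted p = 0.0185). Col7a1 had few reads in Mfn2-/- libraries on both days (12, 13 and 9 at day -2, then 14, 9 and 14 at day +8). WT libraries had 1482, 1494 and 1595, then 186, 244 and 164. The higher response of Col7a1 is thus a fall in WT libraries without a clear rise in Mfn2-/- libraries.

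At day -2 the knockout effect was higher in Mfn1-/- than in Mfn2-/- MEFs for Col1a1 (1.57, adjusted p = 0.00486), Col1a2 (6.27, adjusted p = 6.48e-09), Col5a1 (1.38, adjusted p = 0.00279), Col6a3 (7.23, adjusted p = 3.07e-10), Col15a1 (10.65, adjusted p = 8.43e-14) and Col18a1 (4.17, adjusted p = 6.49e-14), and lower for Col6a2 (-0.78, adjusted p = 0.00639). The Col1a1 call was lost without any of 5 libraries (adjusted p 0.0104 to 0.0155), and the Col6a2 call without any of 9 (adjusted p 0.0107 to 0.0257). At day +8 it was higher in the libraries labelled Mfn1-/- for Col1a2 (5.49, adjusted p = 4.65e-08), Col3a1 (2.10, adjusted p = 0.00874), Col4a1 (2.41, adjusted p = 5.84e-07), Col4a2 (2.01, adjusted p = 2.88e-05), Col6a1 (1.89, adjusted p = 1.9e-10), Col6a2 (2.05, adjusted p = 5.04e-09), Col6a3 (4.70, adjusted p = 4.71e-07), Col15a1 (9.70, adjusted p = 5.77e-13) and Col18a1 (2.70, adjusted p = 7.35e-10). The Col3a1 call of day +8 was lost without any of 9 libraries (adjusted p 0.015 to 0.0416).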

How the results depend on the processing

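Fitted on the libraries compared alone, the count of collagens called was 5 in Mfn1-/- against WT at day +3, 10 at day +8, 3 in WT A to C between days -2 and 0, 1 between days +3 and +8, 2 and 4 in Mfn1-/- MEFs between days 0 and +3 and days +3 and +8, 26 and 15 in WT D to F and Mfn2-/- MEFs between days -2 and +8, and 7 between the WT sets at day -2. On the deposited scale, which moved the median of all genes between groups of different pairs by -0.73 to 0.29, it was 6 and 13 in WT A to C for the first and second steps, 2 in Mfn1-/- MEFs for the first step and 20 between the WT sets at day -2. A pseudocount of 0.5 gave 0 for the first WT step. edgeR gave 2, 4 and 5 and DESeq2 2, 7 and 5 for the first and last WT steps and the WT sets at day -2. Without 1 library at a time the counts for the 3 WT steps were 0 to 2, 3 to 12 and 1 to 10, for the first Mfn1-/- steps 0 to 2 and 4 to 14, and between the WT sets at day +8 0 to 2.

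With the replicate block 16, 18, 14 and 14 collagens passed in Mfn1-/- against WT in order of day. At days -2 and 0 the same-letter correlations were positive but small, at 0.042 to 0.22 and 0.067 to 0.161, so that pairing by letter there is uncertain. The block gave 5 in Mfn1-/- MEFs between days 0 and +3 and 26 in WT D to F between days -2 and +8. No paired analysis was possible because the Mfn2-/- columns carry other letters than the labels, for comparisons with Mfn2-/- libraries.

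The difference in the share of all collagens between Mfn1-/- and WT libraries at day +3 reversed without Mfn1-/- replicate A (0.139 percentage points), Mfn1-/- replicate C (0.221) or WT replicate B (0.572), with a range of -0.559 to 0.572. With type IV genes alone the basement membrane difference was 0.371 and 0.212 in Mfn1-/- libraries at days 0 and +3, and 0.0441 and -0.128 in Mfn2-/- libraries at days -2 and +8. As a share of reads outside the collagens, the difference of the whole basement membrane class in Mfn2-/- libraries at day +8 was -0.162. With the longest transcript as length, the ratios in WT A to C at day -2 were 0.907 for Col1a1 to Col1a2, 1.70 for Col4a1 to Col4a2, 0.344 for Col4a6 to Col4a5, 2.54 for Col6a1 to Col6a2, 0.0537 for Col6a3 to Col6a1 and 0.750 for Col5a1 to Col5a2. The cause of these changes was not tested, except that other lengths were used for the ratios. Over all alternatives, 8521 values of named genes stayed on their side of the threshold, 242 lost it and 165 gained it. Genes with few reads limit the low collagens.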

Other observations

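Some genes near the collagens moved against the collagen beside them in 1 or both knockout lines at day -2, and others moved with it. In Mfn1-/- libraries at day -2 Galnt12 (log2 fold change 3.22) and Anks6 (2.21) rose with their neighbour Col15a1, and Col6a3 did not pass. Ppp1r9a, 361373 bases from Col1a2, averaged 380.0 normalised counts in Mfn1-/- libraries and 16.3 in WT libraries at day -2 (log2 fold change 4.48, adjusted p = 1.04e-12), and 207 in Mfn2-/- libraries and 4.05 in WT libraries (5.47, adjusted p = 1.85e-15). Tgfbr1, which encodes a TGF-beta receptor and lies 40055 bases from Col15a1, averaged 2228 in Mfn1-/- libraries and 422 in WT libraries at day -2 (2.41, adjusted p = 2.3e-13), where Col15a1 rose too. In Mfn2-/- libraries, where Col15a1 fell, Tgfbr1 averaged 910 against 372 in WT libraries (1.29, adjusted p = 4.42e-08). Scly, 454367 bases from Col6a3, averaged 343 in Mfn1-/- libraries and 33.8 in WT libraries at day -2 (3.36, adjusted p = 2.38e-10), and 184 in Mfn2-/- libraries and 11.02 in WT libraries (4.03, adjusted p = 1.11e-12). These genes were chosen after their values were seen.

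Gm43921, which overlaps Col1a2 on the opposite strand, averaged 3.35 in Mfn1-/- libraries and 31.8 in WT libraries at day -2 (-3.25, adjusted p = 0.00012). The spans of the gene models overlap, but exons of other genes cover 0% of the exon length of Col1a2.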
